A study of Mus musculus with 13 samples.

Results

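The core circadian clock loop was read in the gastrocnemius, a calf muscle, of 13 mice, comparing wild-type animals with littermates in which skeletal muscle overexpresses UCP1. The loop was taken as 10 genes, all of which were on the array. They were the activators Arntl, Clock and Npas2 and the repressors Per1, Per2, Per3, Cry1, Cry2, Nr1d1 and Nr1d2, and every probe carrying one of these gene names was used, 13 of 55681 probes. Of these, 10 probes of 7 genes were well above background on at least 6 of 13 arrays and entered the comparison, in which 17271 genes were tested. UCP1, normally found in brown fat, uncouples mitochondria by letting protons leak back past the ATP synthase. The wild-type group held 6 male C57BL/6J mice and the UCP1 transgenic group held 7 male littermates of the same background, all adult. The series design gives an age of 12 weeks, and all animals were kept for 12 weeks on a purified low fat diet before the muscle was removed and frozen. The sources used here give neither the promoter that drives the transgene nor the time of day of dissection. With 1 sampling time per mouse, an earlier or later phase of the rhythm and a lower or higher amplitude cannot be told apart in any value given here.

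In the clock of each cell, BMAL1 (the product of Arntl) pairs with CLOCK or its paralog NPAS2 and switches on genes that carry an E-box in their promoter. Among these are the Per and Cry genes, whose proteins return to the nucleus and block the activators, and Nr1d1 and Nr1d2, whose products REV-ERB alpha and beta repress Arntl and close an interlocked loop. Over a day, Arntl therefore peaks roughly opposite to Nr1d1 and Dbp, and skeletal muscle keeps such a rhythm of its own that responds to feeding, activity and glucocorticoids.

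Each mouse was hybridised on 1 array in Cy5 against a shared pool in Cy3, so a value is the log2 ratio of a mouse to that pool, and a difference is UCP1 transgenic minus wild type. Between 20655 and 24044 probes per array were well above background. The 13 arrays lay on 4 slides, each slide held mice of both groups, and differences within each slide are given beside the results. All 10 muscle fibre markers were measured, of which 5 were lower and 1 higher in the transgenic mice, with a summed Cy5 signal of 921859 to 996349 on wild-type arrays and of 870283 to 967527 on transgenic arrays. The array labelled wild type 4 stood apart on the targeted gene. Its Ucp1 value was 0.45, inside the transgenic range of -0.20 to 0.85, while the other wild-type arrays read -2.82 or less. Its value of Fgf21, a hormone released by this muscle, was -3.60, and thus in the wild-type range of -3.65 to -3.14. White adipocyte markers were higher in the transgenic arrays for 7 of 7 measured markers of 8, with a median difference of 0.91. Their summed signal was 17844 to 25914 on wild-type arrays and 27577 to 40457 on transgenic arrays, and Lep was not well above background. Wild type 4 also stood apart on these markers. Their mean log2 ratio, centred over the arrays, was 0.21 there, -0.70 to -0.44 in the other wild-type mice and -0.01 to 0.64 in the transgenic mice. Of the erythroid markers 3 of 4 were higher. Over all genes tested, 16.8% were called higher and 16.1% lower (limma, Benjamini-Hochberg adjusted p at most 0.05), the background for these marker counts. In such whole tissue, fewer cells of a type and less RNA per cell cannot be told apart.

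Arntl, Per1 and Nr1d1 were lower in UCP1 transgenic muscle, and no member was higher on its brightest probe. The second, dimmer probe of Nr1d2 was called higher (0.34, limma over 22733 probes, adjusted p = 0.022). On the brightest probes, the count higher by limma was 0 also at an unadjusted p of 0.05, and 1 on the log ratio of Agilent's software, where Nr1d2 was called (0.18, adjusted p = 0.038). Thus 1 activator and 2 repressors fell, by 0.67, 0.72 and 0.30 on the log2 scale. This is 3 of 7 measured members (limma, Benjamini-Hochberg adjusted p at most 0.05), against a background of 33.0% of all genes tested and 16.1% called lower, while 16.8% were called higher. Counting both directions, the share of members called was thus near that of all genes, although all 3 calls on the brightest probes were lower. Whether 7 genes can bear such a lean was not tested. The median difference over the members was -0.18 against -0.001 over all genes. Clock, Per2, Cry2 and Nr1d2 were not called, and Npas2, Per3 and Cry1 were too dim to be tested. The direction of Arntl, Per1 and Nr1d1 was the same in all 14 alternative processings, while Clock, Cry2 and Per2 each turned sign in at least 1. Without the within-array loess, centring on the median alone gave a split of all calls of 79.7% higher, against 51.1%, and no member was then called.

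**Figure D1:**
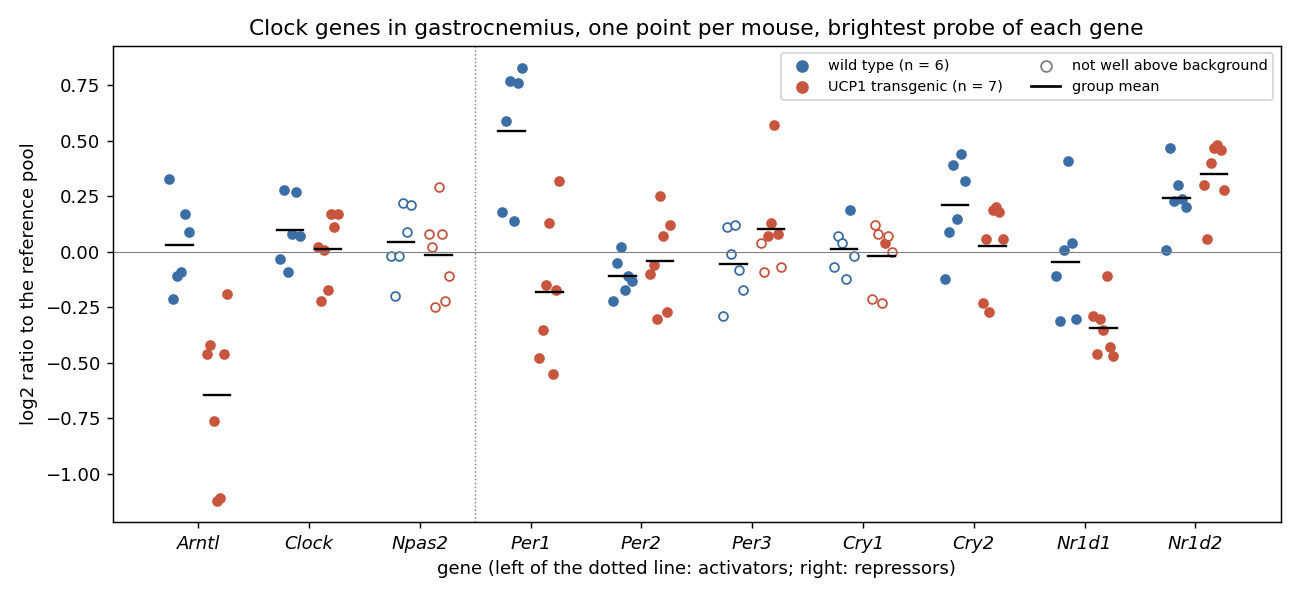
Log2 ratio to the reference pool (vertical axis) of the 10 clock genes (horizontal axis) in 6 wild-type and 7 UCP1 transgenic mice, 1 point per mouse on the brightest probe, with the group mean as a bar and open points where the spot was not well above background. Arntl and Per1 showed the widest separation, with 6 of 7 transgenic mice below every wild-type mouse for each, and Npas2 and most points of Cry1 and Per3 were open.

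Arntl encodes BMAL1, the member whose loss alone abolishes the rhythm of mice in darkness. It was read by 1 probe at chr7:120457261-120457320 (mm9, plus strand). Its log2 ratio was -0.21, 0.00 and 0.33 (lowest, median and highest) in the 6 wild-type mice and -1.12, -0.46 and -0.19 in the 7 transgenic mice. All transgenic mice but 1 lay below the whole wild-type range, and the remaining one, at -0.19, lay just inside it. The difference was -0.67 ± 0.14 (SE; limma, adjusted p = 0.00075), or 1.60-fold lower, with a 95% interval of -0.96 to -0.39. The 2 lowest values, -1.12 and -1.11, came from the transgenic mice of slide 3, whose wild-type mouse read -0.09. Arntl was lower in the transgenic mice on each slide, by differences of -0.76, -0.60, -1.02 and -0.45, and with slide as a block it was -0.68 (adjusted p = 7.4e-06). Leaving out any 1 array gave -0.75 to -0.59, and the adjusted p stayed at or below 0.0024. The call was lost with median centring alone (-0.46, or -0.60 relative to all genes, adjusted p = 0.068) and with the adipocyte marker level as a covariate (-0.53, adjusted p = 0.23).

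The Arntl probe and the 250 bases before its start site are shown because Arntl is the member on which both loops meet. The probe is given by the first 30 of its 60 bases. The upstream window is chr7:113207215-113207464 on the plus strand of GRCm38.p6, from RefSeq. No motif searched was found in it or in a further Arntl window downstream, so it carries no capitals. REV-ERB and ROR elements were not searched as such, so this does not show that they are absent.
Arntl probe: gagccattgatacaagtcaatctaccatgt
Arntl upstream: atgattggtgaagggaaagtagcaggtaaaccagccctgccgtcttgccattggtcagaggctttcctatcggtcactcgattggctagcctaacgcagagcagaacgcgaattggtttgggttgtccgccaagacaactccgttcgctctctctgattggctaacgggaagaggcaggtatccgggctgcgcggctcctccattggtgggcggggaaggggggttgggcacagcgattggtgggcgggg
The motifs were searched on both strands from 250 bases before to 50 after each start. They were the E-boxes CACGTG and CACGTT, the half-site patterns TNGGGTCA and TNAGGTCA, the D-box TTANGTAA and the cAMP element TGACGTCA. They were present in 7.15%, 4.68%, 2.99%, 4.58%, 2.32% and 1.79% of 32851 RefSeq promoter windows, respectively. These counts describe letters in a window, and the absence of a match says nothing about binding elsewhere. The half-site patterns leave a base between the T and GGGTCA or AGGTCA. REV-ERB and ROR elements have the T directly before it, so these patterns do not stand for them.

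The partners of BMAL1 were not called. Clock read -0.09, 0.075 and 0.28 in wild-type and -0.22, 0.02 and 0.17 in transgenic mice. Most mice lay in the shared range, with 2 transgenic mice below it and 2 wild-type mice above it. Its difference was -0.09 ± 0.08 (SE; limma, adjusted p = 0.46), and the 95% interval of -0.26 to 0.09 does not reach the size seen for Arntl. Npas2 was not well above background on any of the 13 arrays, so no level or fold is given for it. The difference between Arntl and Clock within an array averaged -0.0692 ± 0.277 (SD, n = 6 wild-type mice) against -0.657 ± 0.37 (SD, n = 7 transgenic mice). This gap between the genes differed by -0.59 between the groups (exact permutation test over 1716 arrangements, two-sided, p = 0.00758, adjusted over 4 pairs 0.0132). It kept its direction and its call under 6 alternative processings, with values of -0.77 to -0.50, and without wild type 4 (-0.61). The 4 pairs were chosen after the differences of the members had been seen in these same mice, so their p-values are descriptive.

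Per1 is a Period gene that is induced within the hour by light, activity, cAMP and glucocorticoids, in addition to its E-box-driven rhythm. Its brightest probe at chr11:68923364-68923423 (mm9, plus strand) read 0.14, 0.675 and 0.83 in wild-type and -0.55, -0.17 and 0.32 in transgenic mice. Of the 7 transgenic mice, 6 lay below all wild-type mice, and 1 transgenic mouse of slide 4 lay above the lowest wild-type values. The difference was -0.72 ± 0.14 (SE; limma, adjusted p = 0.00057), or 1.65-fold lower, and it was -0.81 to -0.66 when any 1 array was left out. A second probe at chr11:68919895-68919954, 3469 bases away, read 0.34, 0.57 and 0.74 in wild-type and -0.43, -0.17 and -0.04 in transgenic mice. Here every transgenic mouse lay below every wild-type mouse, and groups without overlap in either direction were found in 14.8% of all genes on their brightest probe. The difference on it was -0.75 ± 0.08 (SE; limma over 22733 probes, adjusted p = 5.6e-07), where 31.8% of all kept probes were called.

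The Per1 probes and promoter are shown because 2 distant probes of the gene gave nearly the same difference. Each probe is given by its first 30 of 60 bases. The upstream window is chr11:69098699-69098948 on the plus strand of GRCm38.p6, from RefSeq, with the motifs found in capitals. They are an E-box CACGTG whose first base lies at -166 from the start site and a half-site pattern TNAGGTCA, read on the opposite strand, at -137. The base before AGGTCA there is G, so it is not given as a REV-ERB or ROR element. A further Per1 start site downstream held none of the motifs.
Per1 brightest probe: gtgttctcagctctaccctctaccaatgac
Per1 second probe: ttagtgtttcagggcagtagaggtggccgg
Per1 upstream: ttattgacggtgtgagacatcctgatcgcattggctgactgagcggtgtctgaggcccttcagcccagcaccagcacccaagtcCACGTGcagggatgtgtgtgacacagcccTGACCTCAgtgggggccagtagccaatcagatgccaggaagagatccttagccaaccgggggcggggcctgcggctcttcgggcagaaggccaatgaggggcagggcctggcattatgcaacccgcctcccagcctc

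The 2 Per1 probes agreed on the group difference but less on the single mouse. With group means removed, their values over the 13 arrays correlated at r = 0.23, given as a description of probes that share their arrays. On the brightest probe the differences within slides 1 to 4 were -0.59, -0.83, -0.35 and -0.72. On the second probe they were -0.41, -0.70, -0.80 and -1.01, so both probes were lower on every slide while the slides took a different order. The brightest probe lost its call with median centring alone (-0.45, or -0.59 relative to all genes, adjusted p = 0.32) and with the adipocyte covariate (-0.29, adjusted p = 0.53). The second probe was called under all 9 alternatives run on it, with values of -0.95 to -0.55, and read -0.88 (adjusted p = 0.00076) with the adipocyte covariate, -0.75 without wild type 4 and -1.12 (adjusted p = 0.021) with both of these changes.

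**Figure D2:**
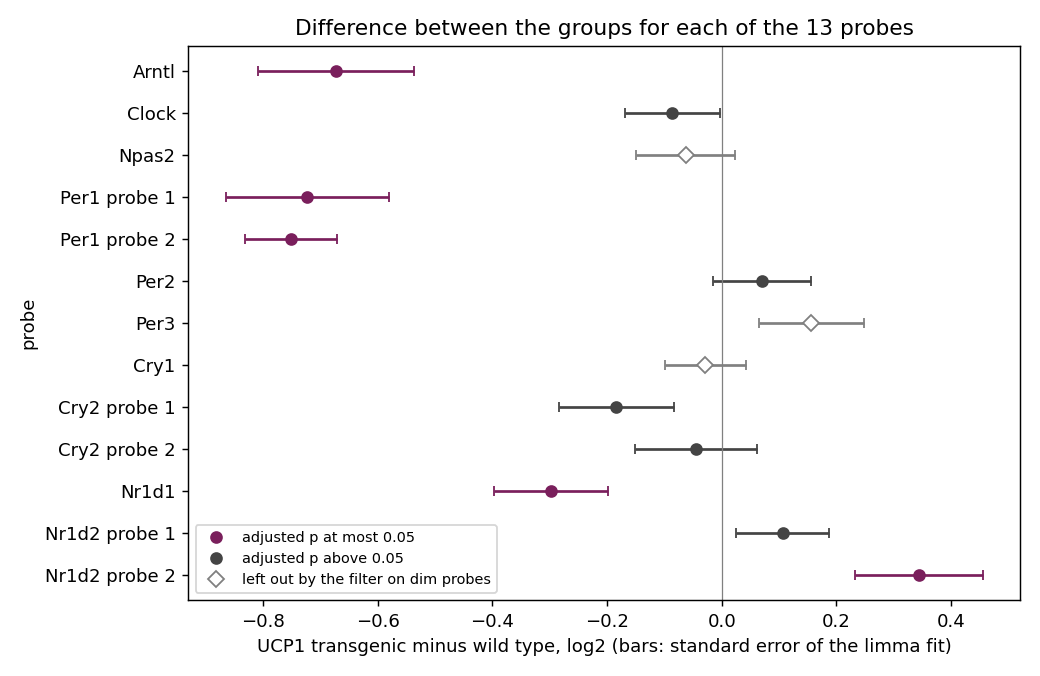
Difference between UCP1 transgenic and wild-type mice (horizontal axis, log2, with the standard error of the limma fit) for each of the 13 probes (vertical axis), where filled points were tested and open diamonds were left out as dim. The points of Arntl (-0.67) and of both Per1 probes (-0.72 and -0.75) lie together at the left, and the second Nr1d2 probe (0.34) is the called point on the right.

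The fall of Per1 was not seen in Per2, whose probe was dim, and Per3 was too dim to test. Per2, the Period gene whose loss shortens and weakens the rhythm in mice, read -0.22, -0.12 and 0.02 in wild-type and -0.30, -0.06 and 0.25 in transgenic mice. The transgenic values spread to both sides of the wild-type range, with 2 mice below and 3 above it. The difference was 0.07 ± 0.08 (SE; limma, adjusted p = 0.57; 95% interval -0.11 to 0.25), and it was -0.05 in the deposited value table of the authors. The median net Cy5 signal of this probe was 42.3 in wild-type and 46 in transgenic mice, near the normexp offset of 50. Such an offset narrows the ratios of dim probes. With offset 16 the difference was 0.10 ± 0.11 (SE), and on the log ratio of Agilent's software 0.19 ± 0.18, so a change of Per2 may be understated. Per1 minus Per2 within an array averaged 0.657 ± 0.26 (SD, n = 6 wild-type mice) against -0.136 ± 0.306 (SD, n = 7 transgenic mice), and no transgenic mouse reached the wild-type range. That gap differed by -0.79 between the groups (exact permutation test, two-sided, p = 0.000583, the smallest that 1716 arrangements can give, adjusted over 4 pairs 0.00233). This pair too was chosen after its values were seen. It also sets a bright Per1 probe (median net Cy5 signal 2900 in wild-type and 1790 in transgenic mice) against the dim Per2 probe. Per3, a Period gene that is dispensable for the rhythm, was well above background in 0 of 6 wild-type and 4 of 7 transgenic mice and was not tested. Its difference of 0.16 ± 0.09 (SE) was not called in the limma fit without the filter on dim probes (adjusted p = 0.37).

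The cryptochromes, the repressors that carry most of the block on CLOCK and BMAL1, were not called. Cry1 was well above background on 1 wild-type and 1 transgenic array, and is not reported as a level. The brighter Cry2 probe read -0.12, 0.235 and 0.44 in wild-type and -0.27, 0.06 and 0.20 in transgenic mice. The transgenic values filled the lower part of the same range, and 2 of 7 lay below it. The difference was -0.18 ± 0.10 (SE; limma, adjusted p = 0.18; 95% interval -0.39 to 0.03). The second Cry2 probe, 7610 bases away, gave -0.05 (adjusted p = 0.79), and within slides the brighter probe was lower on 2 and higher on 2.

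Nr1d1 encodes REV-ERB alpha, the repressor of Arntl, and is itself a direct target of CLOCK and BMAL1. Its probe, of 60 bases over a span of 503 bases at chr11:98630526-98631028 (mm9, minus strand), read -0.31, -0.05 and 0.41 in wild-type and -0.47, -0.35 and -0.11 in transgenic mice. The transgenic values were tight and low, 4 of 7 of them below all wild-type mice, while the wild-type values were spread out with wild type 4 as the highest. The difference was -0.30 ± 0.10 (SE; limma, adjusted p = 0.026), or 1.23-fold lower, with differences within slides of -0.26, -0.15, -0.64 and -0.32. This call is the least firm of the 3. The adjusted p rose to 0.064 without wild type 4 (difference -0.21), to 0.051 without wild type 3, to 0.056 without wild type 5 and to 0.051 without transgenic mouse 7, and with median centring alone the value was -0.09 (-0.23 relative to all genes, adjusted p = 0.82). With the adipocyte covariate it was -0.74 (adjusted p = 0.0031), but that value rests on wild type 4, which had both the highest Nr1d1 value (0.41) and the only high adipocyte marker mean among wild-type mice. Without this array the covariate fit gave -0.49 ± 0.25 (limma, adjusted p = 0.33).

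Nr1d2 encodes REV-ERB beta, which acts on the same DNA elements as REV-ERB alpha. Its brightest probe at chr14:19036568-19036627 (mm9, minus strand) read 0.01, 0.235 and 0.47 in wild-type and 0.06, 0.40 and 0.48 in transgenic mice, ranges that overlapped almost fully. The difference of 0.11 ± 0.08 (SE; limma, adjusted p = 0.35; 95% interval -0.06 to 0.28) was not called. The second probe at chr14:19037253-19037312, 685 bases away, read -0.46, 0.00 and 0.24 in wild-type and -0.04, 0.31 and 0.51 in transgenic mice, with 4 of 7 transgenic mice above all wild-type mice. It rose by 0.34 ± 0.11 (SE; limma over 22733 probes, adjusted p = 0.022), with differences within slides of 0.45, 0.23, 0.35 and 0.47. It lost its call with median centring alone (0.56, adjusted p = 0.17) and with the adipocyte covariate (0.23, adjusted p = 0.58). The 2 probes moved together from mouse to mouse (r = 0.84 over 13 arrays with group means removed, a description), so they disagreed on the size of the difference more than on which mice were high. Nr1d1 minus Nr1d2 within an array, on the brightest probes, averaged -0.286 ± 0.309 (SD, n = 6 wild-type mice) against -0.69 ± 0.134 (SD, n = 7 transgenic mice). This gap differed by -0.40 between the groups (exact permutation test, two-sided, p = 0.00991, adjusted over 4 pairs 0.0132). The pair was chosen after the values of both genes were seen, so the test is not independent evidence that the paralogs differ.

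The REV-ERB probes and the Nr1d1 promoter are shown because Nr1d1 was called and Nr1d2 on its brightest probe was not, and because the Nr1d2 probes differed. Each probe is given by its first 30 bases. The Nr1d1 window is chr11:98775378-98775627 on the minus strand of GRCm38.p6, from RefSeq, written 5′ to 3′ along the gene, with an E-box variant CACGTT, read on the opposite strand, in capitals with its first base at -28. The Nr1d2 window held none of the motifs.
Nr1d1 probe: ggcacctttgaggtgctgatggtgcgcttt
Nr1d2 brightest probe: ctgtgaggggagctcagatagatgtatctt
Nr1d2 second probe: ccagaactgttagtattgcttgtgatgctt
Nr1d1 upstream: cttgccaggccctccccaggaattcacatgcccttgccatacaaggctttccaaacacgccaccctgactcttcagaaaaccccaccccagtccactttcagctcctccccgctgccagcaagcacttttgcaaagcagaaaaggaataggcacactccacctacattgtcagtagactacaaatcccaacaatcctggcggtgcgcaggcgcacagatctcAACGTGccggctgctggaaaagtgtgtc
Of the other members, the Cry1 window held CACGTG and CACGTT, the Cry2 window CACGTT, the Per3 window 2 copies of TTANGTAA and 1 of 3 Clock windows TNAGGTCA. E-box letters were thus found both in members that fell (Per1 and Nr1d1) and in a member that was not called (Cry2).

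**Figure D3:**
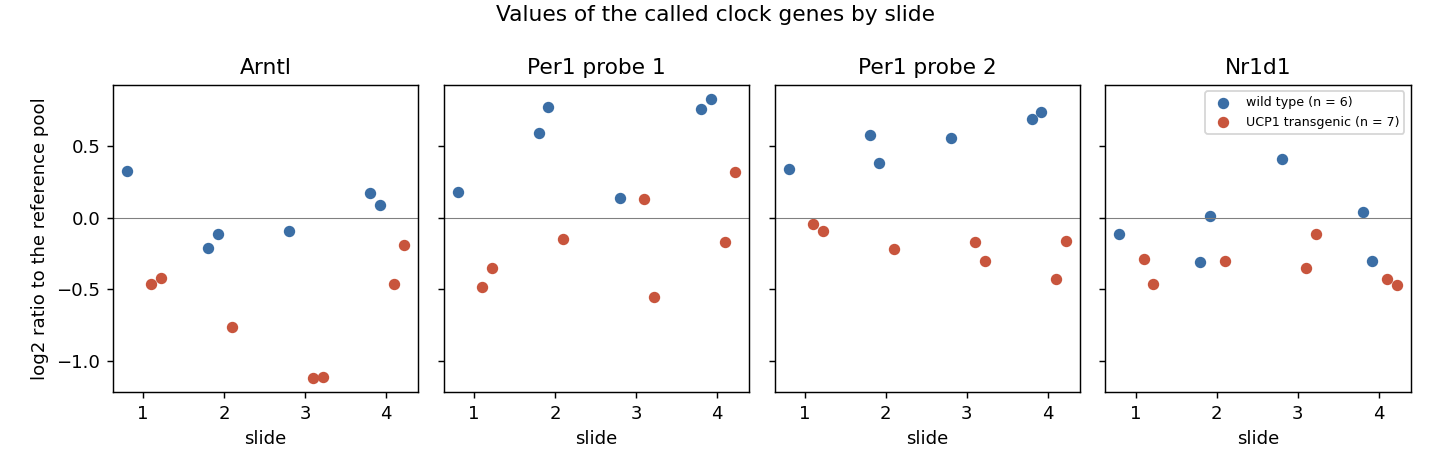
Log2 ratio to the reference pool (vertical axis) of Arntl, both Per1 probes and Nr1d1 by slide (horizontal axis), 1 point per mouse, wild type and UCP1 transgenic. On the second Per1 probe all transgenic points lie below all wild-type points, the lowest Arntl values (-1.12 and -1.11) lie on slide 3, and the highest Nr1d1 value (0.41) is wild type 4 on slide 3.

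The activators and the repressors were then set against each other within each mouse. The mean of the measured activators, Arntl and Clock, was 0.06 ± 0.11 (SD, n = 6 wild-type mice) against -0.32 ± 0.21 (SD, n = 7 transgenic mice). Its fall came mostly from Arntl (difference -0.67), while Clock (-0.09) was not called. The mean of the 5 measured repressors was 0.17 ± 0.12 in wild-type and -0.04 ± 0.11 in transgenic mice. The limbs therefore did not move in opposite directions as group means, although the repressor mean combined a fall of Per1 and Nr1d1 with no call for the other 3 genes. Activators minus repressors was -0.10 ± 0.19 in wild-type and -0.28 ± 0.27 in transgenic mice, a difference of -0.17 that is smaller than the spread within either group. It ranged from -0.38 to 0.20 among wild-type mice and from -0.78 to -0.06 among transgenic mice, and the lowest 2 values were the transgenic mice of slide 3. Within slides the difference was -0.32, 0.00, -0.46 and -0.02. Arntl minus Per1, the called genes of opposite limbs, differed by 0.05 between the groups (exact permutation test, two-sided, p = 0.829, adjusted over 4 pairs 0.829), with a sign that turned under 4 of 6 alternatives.

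**Figure D4:**
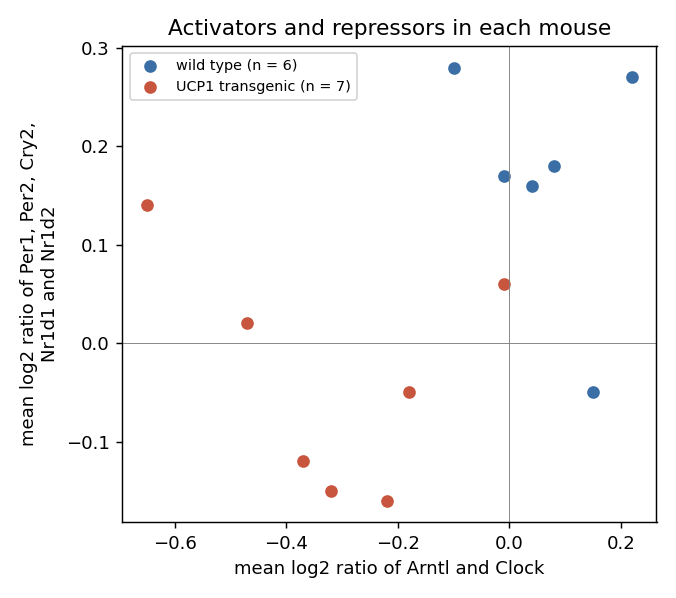
Mean log2 ratio of the activators Arntl and Clock (horizontal axis) against the mean of the repressors Per1, Per2, Cry2, Nr1d1 and Nr1d2 (vertical axis), 1 point per mouse. Transgenic mice lie to the left and mostly lower, with group means of -0.32 and -0.04 against 0.06 and 0.17 in wild type.

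Arntl was also compared with the other measured members and with Dbp, a classic output of CLOCK and BMAL1 whose level runs opposite to Arntl over the day, within each group. Dbp itself read from -0.86 to 0.77 in wild-type and from -0.88 to 0.68 in transgenic mice, and its difference of -0.35 ± 0.26 (SE; limma, adjusted p = 0.34) was not called. The correlation of Arntl with Dbp was negative in both groups. In the 7 transgenic mice Pearson's r was -0.92 (exact permutation p = 0.0081, adjusted over 14 relations 0.11) and Spearman's rho -0.71 (exact permutation p = 0.088, adjusted 0.32). In the 6 wild-type mice r was -0.83 (exact permutation p = 0.04, adjusted 0.19) and rho -0.71 (exact permutation p = 0.14, adjusted 0.32). Without the 2 mice farthest from the median of Arntl, r was -0.65 and -0.79. For Nr1d2 r was -0.63 (exact permutation p = 0.14, adjusted 0.32) and rho -0.89 (exact permutation p = 0.012, adjusted 0.17) in transgenic mice. In wild-type mice Nr1d2 gave r = -0.88 (exact permutation p = 0.019, adjusted 0.14) and rho = -0.71 (exact permutation p = 0.14, adjusted 0.32). Without the 2 farthest mice r for Nr1d2 was -0.36 in transgenic and -0.47 in wild-type mice. Leaving out mice at the ends of the Arntl range narrows that range, so these values cannot show whether a relation rests on those mice. None of the 14 relations passed the adjustment. Arntl and Per1, which both fell between the groups, showed r = 0.22 in transgenic and -0.16 in wild-type mice, neither called (exact permutation p = 0.63 and 0.74). The 3 mice of slide 3 read 0.57 to 0.77 for Dbp, and the part of the slide in these relations was not tested.

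**Figure D5:**
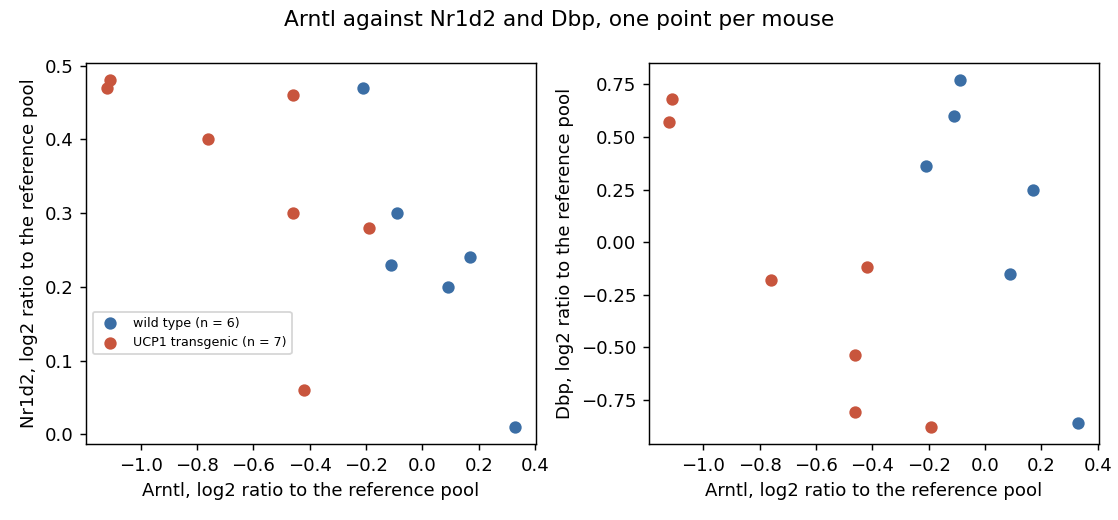
Log2 ratio of Arntl (horizontal axes) against that of Nr1d2 and of Dbp (vertical axes), 1 point per mouse, wild type and UCP1 transgenic. In each group the points fall from upper left to lower right, with r = -0.83 and -0.92 for Dbp and -0.88 and -0.63 for Nr1d2 in the wild-type and the transgenic group, and the transgenic points are shifted left.

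Around the core loop, 42 further genes in 4 lists were read, of which 40 were measured, 3 were higher and 11 lower, with a median difference of -0.10. Over all genes 33.0% were called, 16.8% higher and 16.1% lower. The number called in either direction in these lists, 14 of 40, is near that background, though 11 of the 14 were lower. The 11 lower became 4 with the adipocyte covariate, 2 with median centring alone and 7 without wild type 3. Among the kinases, ligases and phosphatases that set the life of PER and CRY, 1 of 10 measured genes fell, Fbxw11 (-0.25 ± 0.08 SE; limma, adjusted p = 0.019), an F-box protein that marks PER for destruction. The casein kinase genes Csnk1d, Csnk1e and Csnk1a1 were among the 9 that were not called. Of 12 measured factors of the secondary loops, 4 fell and 1 rose. Nfil3 (-0.83 ± 0.17; limma, adjusted p = 0.00063) is the repressor that competes with DBP at D-boxes, Bhlhe41 (-0.51 ± 0.09; adjusted p = 0.00027) is the repressor DEC2, and Hdac3 (-0.46 ± 0.07; adjusted p = 8.3e-05) is the deacetylase that works with REV-ERB. Rora, whose product activates Arntl through the elements that REV-ERB alpha represses, fell by 0.33 (limma, adjusted p = 0.033), and the gene that rose was Rbm4 (0.26, adjusted p = 0.0033), which is named after its value was seen.

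Of 9 output genes of the clock, 5 were lower and 1 was higher, a short list to set against the 33.0% called over all genes. Pfkfb3, a regulator of glycolysis, fell by 1.26 (limma, adjusted p = 7.4e-06). Tsc22d3, a mediator of glucocorticoid action, fell by 1.09 (adjusted p = 7e-07), and the D-box factor Hlf fell by 0.95 (adjusted p = 9.3e-07), while Por, the reductase that serves cytochrome P450 enzymes, rose by 0.52 (adjusted p = 0.00011). Of 9 genes that feed metabolic state into the clock, Sik1 fell by 0.41 (limma, adjusted p = 0.031) and Prkaa1, a catalytic subunit of AMPK, rose by 0.26 (adjusted p = 0.012). Nampt, Sirt1 and Ppargc1a were not called.

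Per1 also answers to glucocorticoids and to immediate early signalling, so these lists are set beside it. Of 12 glucocorticoid-responsive genes 4 were lower and none higher, with a median difference of -0.06, against 33.0% called over all genes and 16.1% called lower. The differences of Sgk1, Cebpd, Errfi1 and Dusp1 were -1.08, -0.82, -0.72 and -0.61 (limma, adjusted p = 5.2e-06, 0.014, 0.0014 and 0.00054). The other 8 were not called, namely Fkbp5 (-0.10), Klf9 (0.03), Zbtb16 (-0.29), Mt1 (0.32), Mt2 (0.38), Pdk4 (-0.01), Angptl4 (0.32) and Klf15 (0.17). Tsc22d3, given above with the output genes, is also induced by glucocorticoids. Of 8 measured immediate early genes 3 were lower and 2 higher, again against 33.0% called over all genes, and the differences of Nr4a2, Nr4a1, Jun and Egr1 were -1.38, -0.70, -0.45 and 2.28 (limma, adjusted p = 5.1e-05, 4e-04, 0.002 and 4.7e-08). Whether any of these moves with Per1 within a mouse was not tested.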

How the data were processed

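Total RNA of the gastrocnemius of each of the 13 mice was hybridised to its own Agilent 8x60K array in 2 colours. The deposited scanner files hold linear spot and background intensity of both channels, per the file headers, written by Agilent Feature Extraction 10.5.1.1, which the submitters' processing notes also name. They also hold the log10 ratio of Cy5 over Cy3, per the file headers, and flags with other values. The authors' deposited value table was taken as log2 Cy5 values (each column's median is 7.58, r with the array's own log2 Cy5 0.988 to 0.994, with its log ratio 0.068 to 0.147). Its background correction, filter and the scaling behind it are unknown here, so it served as an alternative.

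Signals were corrected with normexp (offset 50) and normalised by loess within arrays in limma 3.58.1 (R 4.3.3). Controls and outlier spots were left out. A probe was kept where its Cy5 spot was flagged well above background on 6 or more arrays, which left 22733 of 55681, and the brightest stood for each of 17271 genes. Groups were compared by lmFit and eBayes with no covariate, p-values were adjusted by Benjamini-Hochberg over all genes, and the second probes in a fit over all kept probes. A simulation with known changes of 0.5 and 1 was used to test the code. Pairs of members and relations to Arntl were tested by exact permutation. These tests, the alternatives run on the second probes and the covariate without wild type 4 were chosen after seeing the data. The adipocyte covariate is the mean log2 ratio of 7 markers.

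The members, lists and tests were chosen with earlier results of these data known. All members are described, and from each list at most 4 called genes with the largest difference, plus Dbp and Rbm4. Names in lists that were not called were chosen after their values were seen. Of 13 member probes, 10 had an accession in the RefSeq table of GRCm38.p6, with the same symbol each, and 9 of 10 genes had a promoter there. The probes without one were the brightest Nr1d2 probe, the second Per1 probe and the second Cry2 probe. Exon and UTR annotation of the probes was not used here. The labels call the samples individual mice. The number of arrays limits the precision, and without a dye swap a dye effect common to all arrays stays in the ratios but cancels between groups.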

Additional observations from a re-analysis of the deposited data

Results flagged for a closer look

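The Per3 value of UCP1 transgenic mouse 5, 0.57, stood far above the other transgenic mice, of which the next read 0.13. The gap was 0.671 of the group's range, above Dixon's critical value of 0.568 for 7 samples. It was the only such value in 28 groups of values tested, and chance alone flags about 1 in 20. The Per3 probe was well above background in 4 of 7 transgenic and 0 of 6 wild-type mice, and this mouse also had 1 of the lowest Arntl values (-1.11). The cause was not tested.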

How the results depend on the processing

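Calls on single probes depended mainly on the scaling and on the adipocyte covariate, while the second Per1 probe was called under all 9 alternatives. On the log ratio of Agilent's software, 1 member was called higher, Nr1d2 (0.18, adjusted p = 0.038). With median centring and no loess, 0 members were lower, 1 pathway gene was higher and 2 lower, and 1306 genes were called in all, against 5691. All genes then had a median of 0.141, and Clock (0.08), Cry2 (0.07) and the second Cry2 probe (0.09) turned positive, although relative to that median they were -0.06, -0.07 and -0.05. With the adipocyte covariate, 1 member and 4 pathway genes were lower, 2014 genes were called, and Cry2 (0.05) and its second probe (0.11) turned positive. The covariate ran from -0.70 to 0.21 in wild-type and from -0.01 to 0.64 in transgenic mice and was thus itself higher in the group it adjusts, and the overlap rests on wild type 4 (0.21), since the other wild-type mice read -0.44 or less. With the covariate and without wild type 4, Arntl was -0.55, Per1 -0.47 and Nr1d1 -0.49, none called (adjusted p = 0.57, 0.62 and 0.33), the second Nr1d2 probe was 0.39 (adjusted p = 0.64), the second Cry2 probe turned to 0.38, and the second Per1 probe was still called (-1.12, adjusted p = 0.021). Per2 was -0.05 in the authors' value table, and the second Cry2 probe was 0.01 with slide as a fixed block. Activators minus repressors was -0.46 within slide 3. Arntl minus Per1 was -0.17 with Agilent's log ratio, -0.01 with offset 16, -0.01 with median centring and -0.04 in the value table. The causes were not tested. Leaving out 1 array at a time gave 2 to 3 members lower and 0 to 0 higher, 3 to 4 pathway genes higher and 7 to 12 lower (7 without wild type 3), 5137 to 5701 genes in all, and -0.23 to -0.09 for activators minus repressors. Replicate numbers did not pair the mice (r of deviations between same-numbered mice -0.23 to 0.23). A replicate block gave 5365 calls and 3 members lower, with Arntl at -0.75, Per1 at -0.81 and Nr1d1 at -0.28 (adjusted p = 0.029), and changed no member's call. Members near background (Npas2, Cry1 and Per3) are limited by signal.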

Other observations

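Over the 13 arrays, with group means removed, the genes whose values ran most like activators minus repressors were looked up among 17148 genes without a missing value. These correlations are descriptions, and all points share their arrays and slides. Of the genes outside all lists, the 5 most alike were Brp44 (r = 0.93), the mitochondrial pyruvate carrier subunit MPC2, Ica1 (0.89), 2 transcripts that the array names only by position (0.88 and 0.87) and Ppip5k2 (0.85). The 5 most opposite were Adamts1 (-0.90), a secreted metalloprotease, Car1 (-0.88), Whamm (-0.87), Atoh8 (-0.86) and Spcs2 (-0.86). Among these 10, Brp44 fell by 0.33 (limma, adjusted p = 0.00073) and Adamts1 fell by 0.39 (adjusted p = 0.015), and the other 8 were not called between the groups. The highest value over all genes was that of Mb, the myoglobin gene, at r = 0.96 (0.89 within wild-type and 0.98 within transgenic mice). Mb is in the muscle marker list and was chosen after its value was seen. It fell by 0.54 ± 0.12 (SE; limma, adjusted p = 0.0021) and read lowest, at -1.04 and -0.62, in the 2 transgenic mice of slide 3 that also had the lowest Arntl.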
